A study of Mus musculus with 49 samples.

Results

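The genes described here are the glutathione and NRF2 antioxidant genes of white fat. They were taken from the deposited tables by symbol, as every alpha, kappa, mu, omega, pi, theta and zeta class glutathione transferase (Gst), every glutathione peroxidase (Gpx), and the enzymes Gclc, Gclm, Gsr, Gss, Nqo1, Hmox1, Txnrd1 and Srxn1. The rule found 38 of 22869 gene symbols, namely 21 transferases, 9 peroxidases (the pseudogene Gpx2-ps1 among them) and the 8 named enzymes. The study sequenced RNA from white fat of C57BL/6 and 129S1/SvImJ mice, both inbred strains, and the labels name no allele beyond the strain. A visceral depot, epididymal white adipose tissue (eWAT), came from mice on standard chow (5 libraries a strain). It also came from mice that ate a control low fat diet from 6 to 16 weeks of age and then, until 18 weeks, either that diet or the same diet with 36 mg of rosiglitazone per kg, an agonist of the nuclear receptor PPARG (4 libraries a strain and diet). eWAT (5 C57BL/6 and 4 129S1/SvImJ libraries) and, from under the skin, inguinal white adipose tissue (iWAT, 4 libraries a strain) came from mice after 12 weeks of control low fat diet. The labels give no age for the chow and the 12-week mice and do not say whether a library is 1 mouse or a pool, so the p-values reflect only how these libraries vary, which may be technical.

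Glutathione is a tripeptide made in 2 steps, by glutamate-cysteine ligase (catalytic subunit Gclc, modifier subunit Gclm) and glutathione synthetase (Gss), and glutathione reductase (Gsr) returns its oxidised form to the reduced one. Transferases attach it to reactive molecules such as the aldehydes that come from oxidised lipids, and peroxidases use it to reduce hydrogen peroxide and lipid peroxides. The transcription factor NRF2 (gene Nfe2l2) is held back by KEAP1 until electrophiles or oxidants modify KEAP1, and it then binds antioxidant response elements at genes such as Nqo1, Gclc, Gclm, Srxn1, Txnrd1, Hmox1 and several transferases. In fat these enzymes handle the peroxides and aldehydes formed where lipid is stored and burned.

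All values are the authors' normalized scores, whole numbers with a floor of 1, and the read depth behind them is unknown. Differences are on the log2(value + 1) scale, where 1 is a doubling, and a gene is called when limma's p-value, adjusted over all 22869 genes by the Benjamini-Hochberg method, is under 0.05. Of the 38 genes, 16 had a mean of at least 100 in every group, and 3 (Gpx2, Gsta1 and Gstm3) had a mean under 5 in every group. Per kilobase of transcript, among the 37 genes with a matched transcript, the highest mean levels in C57BL/6 eWAT on control diet were those of Gpx1 (2100), Gstz1 (1630), Gstm1 (511) and Gsta3 (360). In 129S1/SvImJ on the same diet the order was Gstz1 (2860), Gpx1 (1900), Gsta3 (763) and Gstm1 (488). Such an order holds only if the scores were not already scaled to transcript length, which the sources used here do not state. Gpx3, whose transcript was not matched, has no value per kilobase and is not in this order, and its mean values on that diet were 1138.5 in C57BL/6 and 591.75 in 129S1/SvImJ.

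Some libraries stood apart before any comparison. In the chow library of 129S1/SvImJ replicate 2, the 9 epididymis markers together summed to 215576 against a lowest sum of 103 in that group, and the 8 adipocyte markers summed to 20751 against 112759 to 156172 in the other 4 libraries. Skin and glandular epithelium markers were also high in that library and in 129S1/SvImJ chow replicate 1 and C57BL/6 chow replicates 2 and 5 (summed values of 6372, 2712, 1716 and 1855). C57BL/6 12-week eWAT replicate 3 had skeletal muscle markers summing to 10527, and lymphocyte markers ranged from 24 to 3250 over the 129S1/SvImJ iWAT libraries and from 6 to 1558 over those of C57BL/6. Values were coarser in iWAT of C57BL/6 than elsewhere, with 467 to 679 distinct values and 32.1% to 37.7% of rows at the floor, against 1293 to 1865 and 15.2% to 27.2% in the others. Endothelial markers summed to less in every 129S1/SvImJ than in every C57BL/6 eWAT library on chow, on control diet and after 12 weeks, and those sums stand beside the results they touch.

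Several genes have near-identical copies, so reads could be shared between them. Of the 37 genes whose transcript was found in the GENCODE vM21 transcripts, 8 shared over 20% of their 50-base windows with another gene. They were Gsta1 (89.7%), Gstp2 (72.6%), Gpx4 (68.9%, with the pseudogene Gpx4-ps2), Gsta2 (64.2%), Gstp1 (62.3%, with Gstp2), Gstm3 (28.8%), Gstt3 (26%) and Gstm1 (23.1%). Values of these 8 genes are uncertain to that extent, while Gsta3, Gsto1, Gstz1, Gpx1, Gpx8 and the 8 synthesis and NRF2 target enzymes are not among them. This covers sharing between genes only. Whether reads of both strains matched the mm9 reference genome equally well was not tested for any gene.

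The promoter windows of 5 genes are printed for description, and no expression result depends on them. Gstm2, Gsto1 and Gsta3 had the smallest p-values of the set for a difference between the strains' responses to rosiglitazone. Gclm and Srxn1 are examples of NRF2 targets and need not be typical of them. Each runs from 250 bases before to 50 after the start site in RefSeq's annotation of GRCm38.p6, 5′ to 3′ on the gene's strand. Capitals mark the antioxidant response element core TGACNNNGC, searched on both strands. In Gclm and Srxn1 the match lies on the opposite strand.
Gsta3, chr1:21240335-21240634, + strand: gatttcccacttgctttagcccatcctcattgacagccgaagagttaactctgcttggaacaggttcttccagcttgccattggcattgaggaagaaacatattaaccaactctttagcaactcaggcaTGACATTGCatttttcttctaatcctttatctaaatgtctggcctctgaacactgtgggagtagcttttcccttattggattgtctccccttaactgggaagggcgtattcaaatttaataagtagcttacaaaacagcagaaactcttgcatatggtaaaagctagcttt
Gstm2, chr3:107986371-107986670, - strand: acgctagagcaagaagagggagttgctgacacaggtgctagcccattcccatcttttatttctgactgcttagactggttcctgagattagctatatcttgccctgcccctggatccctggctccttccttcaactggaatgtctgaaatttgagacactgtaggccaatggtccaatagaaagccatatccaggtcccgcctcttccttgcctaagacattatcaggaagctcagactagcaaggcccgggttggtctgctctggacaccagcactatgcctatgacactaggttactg
Gsto1, chr19:47854723-47855022, + strand: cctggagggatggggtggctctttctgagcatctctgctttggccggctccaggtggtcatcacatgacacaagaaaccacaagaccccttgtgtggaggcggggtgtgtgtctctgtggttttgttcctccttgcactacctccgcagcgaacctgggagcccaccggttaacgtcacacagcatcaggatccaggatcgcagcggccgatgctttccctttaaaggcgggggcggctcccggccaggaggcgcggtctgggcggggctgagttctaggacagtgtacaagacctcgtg
Gclm, chr3:122245307-122245606, + strand: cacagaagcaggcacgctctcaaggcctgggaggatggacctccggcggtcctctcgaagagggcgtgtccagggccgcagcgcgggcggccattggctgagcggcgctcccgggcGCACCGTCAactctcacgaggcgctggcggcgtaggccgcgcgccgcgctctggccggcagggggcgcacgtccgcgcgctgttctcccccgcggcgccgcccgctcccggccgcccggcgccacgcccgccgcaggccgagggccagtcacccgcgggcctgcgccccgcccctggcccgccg
Srxn1, chr2:152105274-152105573, + strand: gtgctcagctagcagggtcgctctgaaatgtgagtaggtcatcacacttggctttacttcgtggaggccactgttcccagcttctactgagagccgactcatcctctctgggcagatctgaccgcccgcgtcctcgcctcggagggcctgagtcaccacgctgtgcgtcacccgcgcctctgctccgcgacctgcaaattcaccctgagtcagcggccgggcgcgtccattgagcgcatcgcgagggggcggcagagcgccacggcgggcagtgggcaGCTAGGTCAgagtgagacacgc

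The core matched 121 bases before the start of Gsta3, 134 before that of Gclm and 28 after that of Srxn1, and it was not matched in these windows of Gstm2 and Gsto1. It was present in 6 of the 32 genes of the set with a promoter in the table (18.8%), the others being Gstm5, Gstm7 and Txnrd1, against 13.99% of all 27025 genes. Of the other NRF2 targets, Nqo1 had no match in its window, and no window was available for Gclc and Hmox1. A match describes the letters only, and the expression files hold no measure of binding.

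On control diet, eWAT of 129S1/SvImJ had more transcript of 9 of the 38 genes than that of C57BL/6 and less of 2. In this comparison 17.5% of all genes were called. The median log2 difference over the set was 0.29, against 0.01 over all genes. Of the 21 transferases 6 were higher and 2 lower, of the 9 peroxidases 2 were higher, and of the 8 synthesis and NRF2 target enzymes only Gsr was called. Gsta3, an alpha class transferase, stood at 268, 313, 320 and 388 in the 4 C57BL/6 libraries and at 623, 608, 806 and 690 in the 4 of 129S1/SvImJ. The lowest 129S1/SvImJ library was far above the highest of C57BL/6, and the means were 322 ± 49.5 and 682 ± 90.2 (SD, n = 4), a log2 difference of 1.08 (SE 0.20, adjusted p = 0.00111). The mu class gene Gstm2 stood at 196, 145, 139 and 183 in C57BL/6 and 306, 333, 300 and 332 in 129S1/SvImJ, a difference of 0.95 (SE 0.13, adjusted p = 2.99e-05). Gstz1, the zeta class enzyme that acts as maleylacetoacetate isomerase in tyrosine breakdown, stood at 2580, 2654, 2370 and 3219 in C57BL/6 and at 4568, 4543, 4959 and 4854 in 129S1/SvImJ. Neither gene had overlapping groups, and the difference for Gstz1 was 0.81 (SE 0.12, adjusted p = 8.92e-05).

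Gsto1, an omega class transferase that mainly reduces rather than conjugates, went the other way on control diet. It stood at 296, 182, 208 and 137 in C57BL/6 and at 82, 95, 87 and 97 in 129S1/SvImJ. Every 129S1/SvImJ library lay below every C57BL/6 one, and the log2 difference was -1.13 (SE 0.17, adjusted p = 8.57e-05). Gstm6, a mu class gene at low levels, was the other lower gene, at 20 to 25 in C57BL/6 and 7 to 15 in 129S1/SvImJ (-1.06, SE 0.36, adjusted p = 0.0428), a call made in only 2 of 8 fits that left out 1 library. The theta class gene Gstt1 averaged 213.5 ± 91.8 in C57BL/6 and 414 ± 81.2 in 129S1/SvImJ (SD, n = 4), a difference of 1.02 (SE 0.25, adjusted p = 0.00878). Its groups overlapped, since C57BL/6 replicate 4 read 344 and 129S1/SvImJ replicate 3 read 293. Gstk1, the kappa class enzyme of mitochondria and peroxisomes, was higher by 0.59 (SE 0.16, adjusted p = 0.0105), at 111 to 131 in C57BL/6 and 143 to 217 in 129S1/SvImJ. Gstp2, a pi class gene, was called higher at values of only 1 to 7, and it was not called in 6 of 8 fits that left out 1 library, with an adjusted p of 0.153 without 129S1/SvImJ replicate 3.

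Gpx8, a peroxidase of the endoplasmic reticulum, was 53, 84, 71 and 73 in C57BL/6 and 129, 157, 120 and 148 in 129S1/SvImJ on control diet. All 4 libraries of 129S1/SvImJ were higher, by 0.98 on the log2 scale (SE 0.16, adjusted p = 1.82e-04). Gpx4, which reduces lipid peroxides within membranes, was 183, 165, 118 and 187 in C57BL/6 and 246, 231, 207 and 209 in 129S1/SvImJ. These groups did not overlap either, but the difference was smaller, at 0.47 (SE 0.13, adjusted p = 0.0182), and the adjusted p rose to 0.0798 without C57BL/6 replicate 3 and to 0.0587 without 129S1/SvImJ replicate 1. Gsr, which regenerates reduced glutathione, was 162, 190, 161 and 204 in C57BL/6 and 259, 245, 267 and 253 in 129S1/SvImJ. Its difference of 0.52 (SE 0.11) had an adjusted p of 0.00253 and was called in all 8 fits that left out 1 library. Beside these differences all 6 endothelial markers were called lower in 129S1/SvImJ (summed values of 2091 to 2659, against 3421 to 5306 in C57BL/6), and 3 of 8 adipocyte and 1 of 7 macrophage markers were called higher. In bulk tissue fewer cells of a type and less RNA per cell cannot be told apart, and the part of these markers in the result was not tested.

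**Figure D1:**
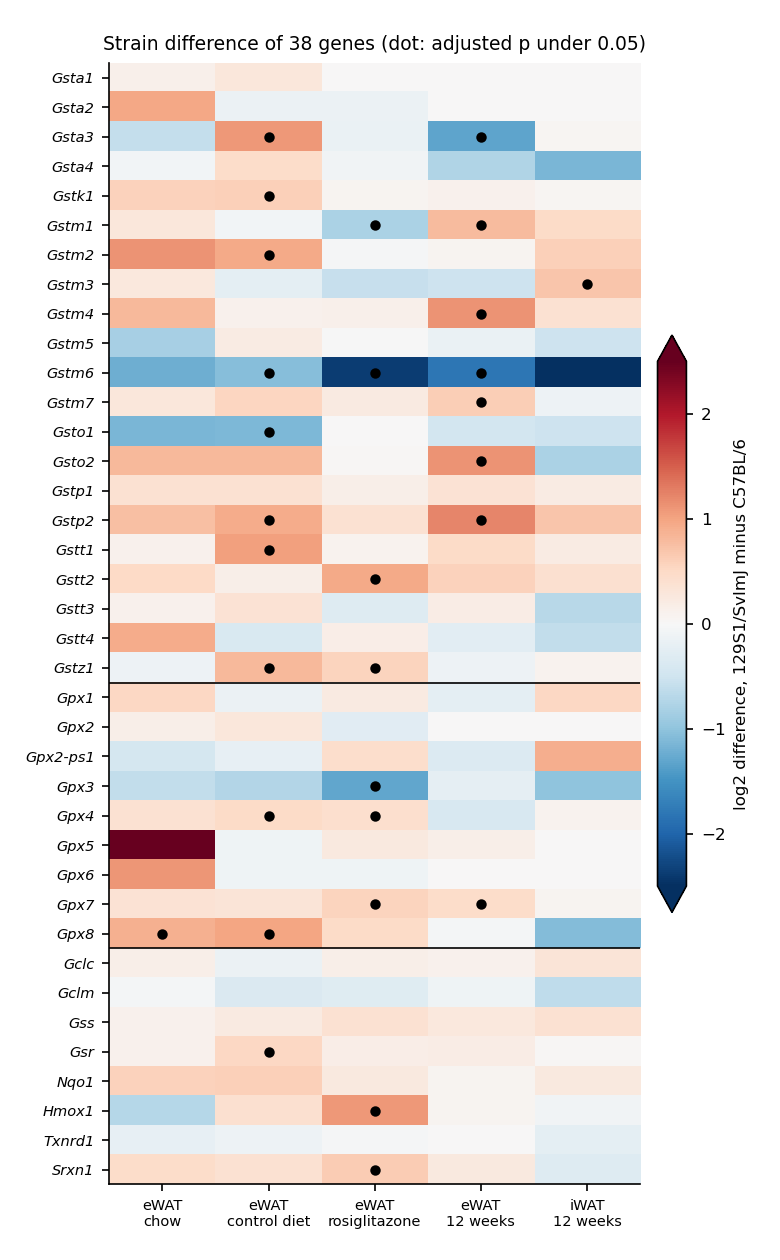
Strain difference of the 38 genes (rows: transferases, peroxidases, then synthesis and NRF2 target enzymes) in the 5 strain comparisons (columns), as the log2 difference of 129S1/SvImJ minus C57BL/6, with a dot where the gene was called. Gsta3 is called higher in 129S1/SvImJ on control diet and lower after 12 weeks, and Gstm6 is called lower in 3 columns. Values beyond the colour scale, such as Gpx5 on chow, take the end colour.

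With rosiglitazone more of these genes were called in 129S1/SvImJ than in C57BL/6, each strain tested against its own control diet. In 129S1/SvImJ eWAT 9 of the 38 genes were called, 6 lower and 3 higher with the drug, where 5.51% of all genes were called. In C57BL/6 eWAT 1 of the 38 was called, where 2.43% of all genes were. The median log2 change over the set was -0.12 in 129S1/SvImJ and -0.01 in C57BL/6, against 0 over all genes in both. Of the 9 genes called in 129S1/SvImJ, 8 were transferases, with 6 of 21 falling and 2 rising. None of the 8 synthesis and NRF2 target enzymes was called by limma in either strain, with 4 in 129S1/SvImJ and 2 in C57BL/6 at an unadjusted p under 0.05. The control diet libraries of each strain serve both its drug comparison and the strain comparison above, so the 2 sets of values are not independent.

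Gsta3 fell in 129S1/SvImJ from 623, 608, 806 and 690 on control diet to 219, 274, 184 and 305 on rosiglitazone. The treated libraries all lay below the untreated ones, and the change was -1.49 (SE 0.20, adjusted p = 1.43e-04). In C57BL/6 it was 268, 313, 320 and 388 without and 440, 200, 237 and 257 with the drug, with the groups overlapping. Gstm1, the mu class gene with the highest level per length on control diet, fell in 129S1/SvImJ from 651, 744, 507 and 613 to 257, 237, 206 and 304 (-1.32, SE 0.14, adjusted p = 3.61e-06). It was the single gene of the set called in C57BL/6, where it went from 735, 700, 546 and 652 to 349, 448, 421 and 532 (-0.60, SE 0.14, adjusted p = 0.0249). Both strains thus showed lower Gstm1 with no overlap between groups. The C57BL/6 call was made in 4 of 8 fits that left out 1 library and not when its 2 groups were fitted alone (adjusted p = 0.188).

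Gstm2 fell in 129S1/SvImJ from 306, 333, 300 and 332 to 147, 116, 109 and 141, and Gstt3, a theta class gene, from 109, 122, 49 and 91 to 32, 40, 29 and 31. Treated libraries were all below untreated ones for both, with changes of -1.31 (SE 0.13, adjusted p = 1.13e-06) and -1.40 (SE 0.23, adjusted p = 5.37e-04). Gstt1 fell from 459, 461, 293 and 444 to 262, 244, 163 and 152 (-1.03, SE 0.25, adjusted p = 0.0207), and Gstz1 from 4568, 4543, 4959 and 4854 to 3226, 3770, 2682 and 3853 (-0.50, SE 0.12, adjusted p = 0.0151). The Gstt1 call was kept in 3 of 8 fits that left out 1 library and the Gstz1 call in 6 of 8, with largest adjusted p-values of 0.0688 and 0.0624, both without 129S1/SvImJ rosiglitazone replicate 3.

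The 3 genes that rose with the drug in 129S1/SvImJ were Gsto1, Gstt2 and Gpx1. Gsto1 went from 82, 95, 87 and 97 to 230, 206, 222 and 222, a tight pair of groups 1.28 apart (SE 0.17, adjusted p = 4.41e-05). In C57BL/6 it was 296, 182, 208 and 137 without and 284, 201, 191 and 209 with the drug, values that reach above and below those of the treated 129S1/SvImJ libraries. Gstt2, another theta class gene, went from 186, 226, 111 and 164 to 325, 346, 304 and 244 (0.86, SE 0.18, adjusted p = 0.00415). Gpx1, the main cytosolic peroxidase, went from 2271, 2514, 1455 and 1918 to 2927, 3034, 2552 and 3401. Its groups did not overlap, although the highest untreated library (2514) came close to the lowest treated one (2552), and the change of 0.57 (SE 0.14, adjusted p = 0.0167) was called in 5 of 8 fits that left out 1 library. Fitted on the 2 groups of 129S1/SvImJ alone, the changes of Gsta3, Gstm1, Gstm2 and Gsto1 stayed called, while the adjusted p was 0.0530 for Gstt3, 0.0750 for Gstt1, 0.0789 for Gstz1, 0.108 for Gstt2 and 0.160 for Gpx1.

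**Figure D2:**
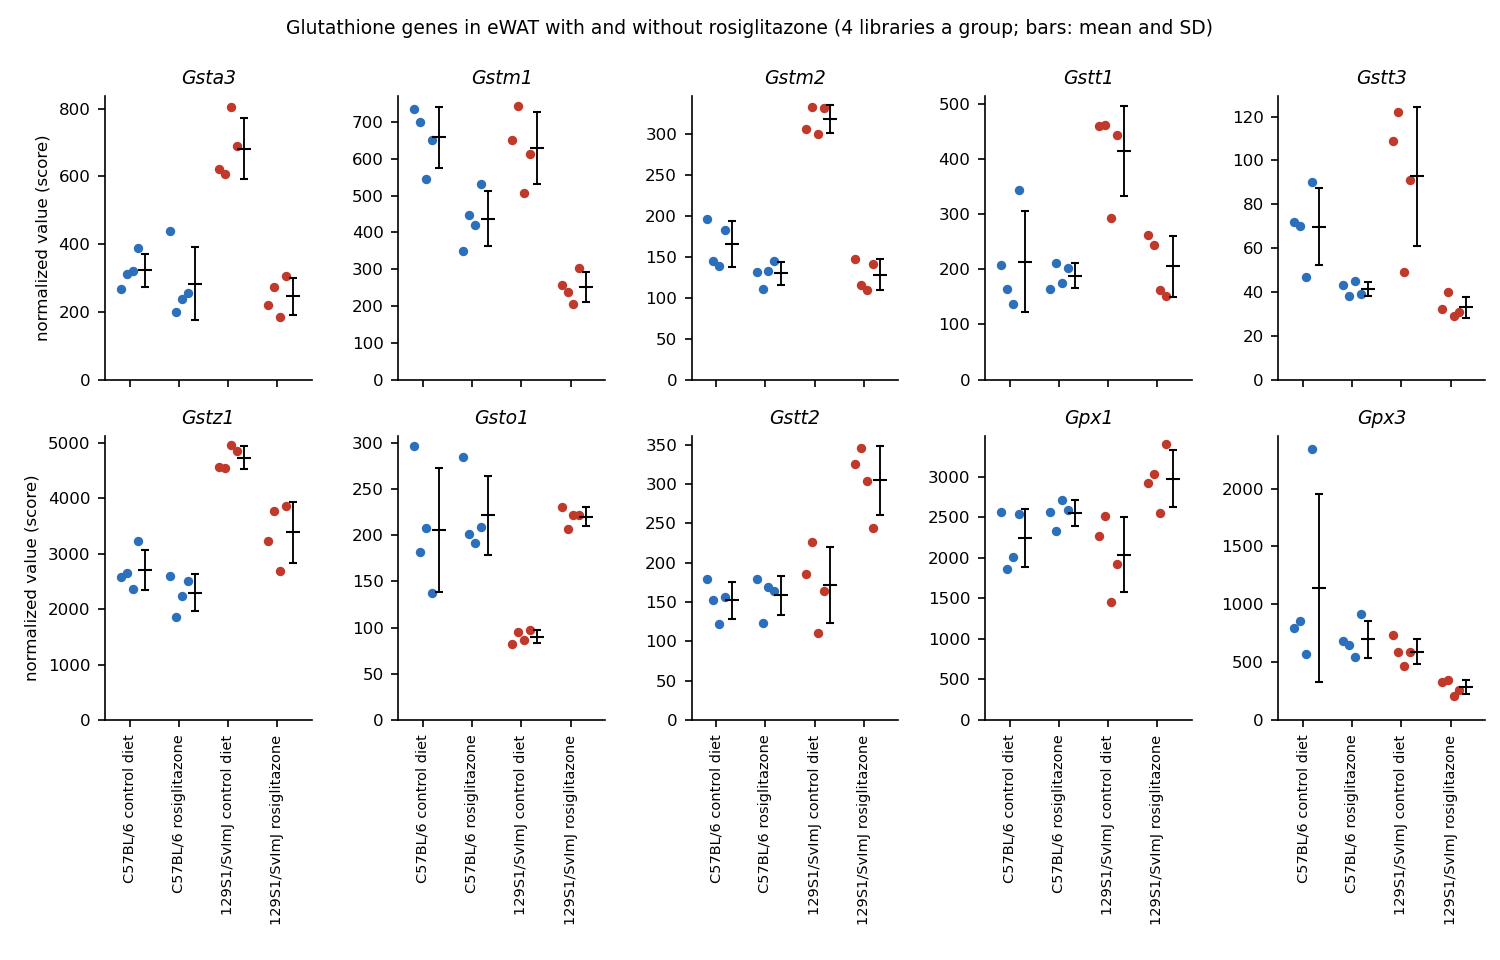
Normalized value of 10 genes in each eWAT library of the drug experiment, C57BL/6 in blue and 129S1/SvImJ in red, with the mean and SD of 4 libraries in black. In 129S1/SvImJ Gsta3, Gstm1, Gstm2 and Gstt3 are lower in every treated than in every untreated library, and Gsto1 rises from 82 to 97 without the drug to 206 to 230 with it.

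The difference between the strains' responses was itself tested as the strain by rosiglitazone term, in which 0.21% of all genes were called. Of the 38 genes 2 were called. Gstm2 fell by more in 129S1/SvImJ, by a further 0.97 on the log2 scale (SE 0.18, adjusted p = 0.0254), its C57BL/6 libraries reading 196, 145, 139 and 183 without and 131, 111, 133 and 145 with the drug. Gsto1 rose by 1.14 more in 129S1/SvImJ (SE 0.24, adjusted p = 0.0480). The Gstm2 term was called in 9 of 16 fits that left out 1 library (largest adjusted p 0.0840, without C57BL/6 rosiglitazone replicate 3) and the Gsto1 term in 2 of 16 (0.142, without the same library). Gsta3 had the next smallest p, with a term of -1.25 (SE 0.28, adjusted p = 0.0930). For the other genes called with the drug in 129S1/SvImJ alone, a difference in response between the strains was not shown.

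Markers of other cells were read beside these changes. Macrophage markers summed to 3368 to 4993 without and 2081 to 3362 with the drug in 129S1/SvImJ, and to 2608 to 5760 and 1534 to 3828 in C57BL/6, with 0 of 7 called by limma and 3 at an unadjusted p under 0.05 in each strain. Mesothelial markers summed to 1243 to 1998 and 581 to 1327 in 129S1/SvImJ, with none of 5 called by limma and 1 at an unadjusted p under 0.05. In C57BL/6 they summed to 313 to 2380 without and 1059 to 1861 with the drug, with 0 at an unadjusted p under 0.05. Endothelial markers summed to 3421 to 5306 and 2538 to 4064 in C57BL/6, and to 2091 to 2659 and 1904 to 2995 in 129S1/SvImJ. Of these 6, 0 were called by limma, with 3 in C57BL/6 and 1 in 129S1/SvImJ at an unadjusted p under 0.05. Of the 8 adipocyte markers 2 were called higher with the drug in 129S1/SvImJ and 1 in C57BL/6, where 1 of 6 lymphocyte markers was called higher too. At an unadjusted p under 0.05 were 3 adipocyte markers in 129S1/SvImJ and 4 in C57BL/6. So were 2 of 3 erythroid markers in C57BL/6 and 2 of 6 skeletal muscle markers in 129S1/SvImJ, with 0 called. The part of these markers in the glutathione gene changes was not tested.

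On rosiglitazone diet the strains differed in 9 of the 38 genes, 6 higher and 3 lower in 129S1/SvImJ, where 10.7% of all genes were called. Gstm6 was 24, 20, 29 and 33 in C57BL/6 and 6, 8, 1 and 5 in 129S1/SvImJ, the largest difference of the set here (-2.37, SE 0.36, adjusted p = 1.43e-04). Gstm1 was lower in every 129S1/SvImJ library, by 0.80 on the log2 scale (SE 0.14, adjusted p = 7.08e-04). Gpx3, the secreted peroxidase of plasma, was 680, 650, 543 and 919 in C57BL/6 and 331, 344, 208 and 256 in 129S1/SvImJ. Its groups were well apart, but the difference of -1.29 (SE 0.35, adjusted p = 0.0303) was called in 1 of 8 fits that left out 1 library, with adjusted p-values up to 0.0775. Higher in 129S1/SvImJ were Gstt2 (0.94, SE 0.18, adjusted p = 0.00123) and Gstz1 (0.55, SE 0.12, adjusted p = 0.00429). Gpx4 (0.42, SE 0.13, adjusted p = 0.0469) and Gpx7, a peroxidase of the endoplasmic reticulum (0.56, SE 0.18, adjusted p = 0.0470), were higher too, but were called in 2 and 1 of 8 fits that left out 1 library.

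The other 2 genes higher in treated 129S1/SvImJ are NRF2 targets. Hmox1, heme oxygenase, was 109, 147, 93 and 109 in C57BL/6 and 293, 185, 266 and 235 in 129S1/SvImJ, and Srxn1, which repairs overoxidised peroxiredoxins, was 92, 139, 114 and 156 and then 208, 191, 197 and 167. No library of one strain reached the other's range, and the differences were 1.09 (SE 0.19, adjusted p = 5.45e-04) and 0.63 (SE 0.15, adjusted p = 0.00707). Both calls held in all 8 fits that left out 1 library, though that for Srxn1 was lost with its 2 groups fitted alone (adjusted p = 0.0909). Without the drug Hmox1 was 150, 77, 119 and 150 in C57BL/6 and 184, 153, 162 and 138 in 129S1/SvImJ, overlapping groups that were not called. The strain by rosiglitazone term of Hmox1 was 0.69 (SE 0.26, adjusted p = 0.360). Beside the strain differences on rosiglitazone 3 of 6 endothelial markers were called lower in 129S1/SvImJ (median over the 6 of -0.54, summed values of 1904 to 2995 against 2538 to 4064 in C57BL/6), and so was 1 of 6 lymphocyte markers. Of 7 macrophage and 8 adipocyte markers 1 each was called higher, and the part of these markers was not tested.

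On chow 1 of the 38 genes was called between strains, where 4.99% of all genes were. Gpx8 was 138, 119, 151, 161 and 131 in C57BL/6 and 226, 291, 273, 250 and 258 in 129S1/SvImJ. All 5 libraries of 129S1/SvImJ were above all 5 of C57BL/6, and the difference of 0.89 (SE 0.09, adjusted p = 0.00246) was called in all 10 fits that left out 1 library. Gpx8 was thus higher in 129S1/SvImJ on both chow and control diet. It was not after 12 weeks, when it read 141 to 186 in eWAT of C57BL/6 and 138 to 209 in that of 129S1/SvImJ. In 12-week iWAT its estimate had the opposite sign (-1.09) and was not called, and on rosiglitazone it was not called either. Beside the chow difference the endothelial markers summed to 710 to 3469 in 129S1/SvImJ and 3683 to 5521 in C57BL/6, with a median difference of -1.04, none of 6 called by limma and 5 at an unadjusted p under 0.05. Of 7 macrophage markers 1 was called higher in 129S1/SvImJ, and the part of these markers was not tested.

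The chow library of 129S1/SvImJ with high epididymis markers stood apart in this gene set too. Gpx5, a peroxidase secreted by the epididymis, read 145538 there, against 23 to 41 in the other 4 libraries of the group and 17 to 51 in C57BL/6 on chow. Outside the chow mice Gpx5 was between 1 and 3 in every library. Nqo1 read 273 there against 43 to 69, Srxn1 441 against 195 to 252, and Hmox1 30 against 95 to 115. Gpx1 was the lowest of its group in that library, at 628 against 2137 to 4071. The part of epididymal RNA in these values was not tested.

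The mu class genes Gstm5, Gstm6 and Gstm7 split the chow libraries in another way. Gstm5 read 1917 and 1995 in C57BL/6 replicates 2 and 5 and 135, 141 and 185 in the other 3, and in 129S1/SvImJ it read 979 in replicate 2 and 147 to 205 elsewhere. Gstm7 read 1004 and 940 in the same C57BL/6 libraries and 23 to 36 in the others, and 5118 in 129S1/SvImJ replicate 2 against 49 to 66. Gstm6 read 271 and 294 against 23 to 38 in C57BL/6, and 831 against 10 to 17 in 129S1/SvImJ. These 3 libraries are among the 4 with raised skin and glandular epithelium markers, while the fourth, 129S1/SvImJ replicate 1, had Gstm5, Gstm6 and Gstm7 at 205, 17 and 58. The part of other tissue in these values was not tested.

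A fit added after the data were seen left out 129S1/SvImJ chow replicates 1 and 2 together, and it called 6 of the 38 genes, 5 higher and 1 lower in 129S1/SvImJ. Gpx1 was then 1175 to 2077 in C57BL/6 and 3369 to 4071 in 129S1/SvImJ (1.18, SE 0.19, adjusted p = 0.0147). Gpx7 (0.76, SE 0.14, adjusted p = 0.0238), Gstt1 (0.72, SE 0.13, adjusted p = 0.0230) and Gstt2 (0.96, SE 0.17, adjusted p = 0.0202) were higher as well, and Gpx8 kept its call (0.90, SE 0.10, adjusted p = 0.00556). Gclm was lower, at 123 to 185 in C57BL/6 and 77 to 98 in 129S1/SvImJ (-0.72, SE 0.15, adjusted p = 0.0330). In the 2 libraries left out Gclm read 218 and 380. Only libraries of 129S1/SvImJ were left out, while C57BL/6 chow replicates 2 and 5, also with raised skin and glandular epithelium markers, were kept. Whether the added calls hold without those 2 as well was not tested.

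**Figure D3:**
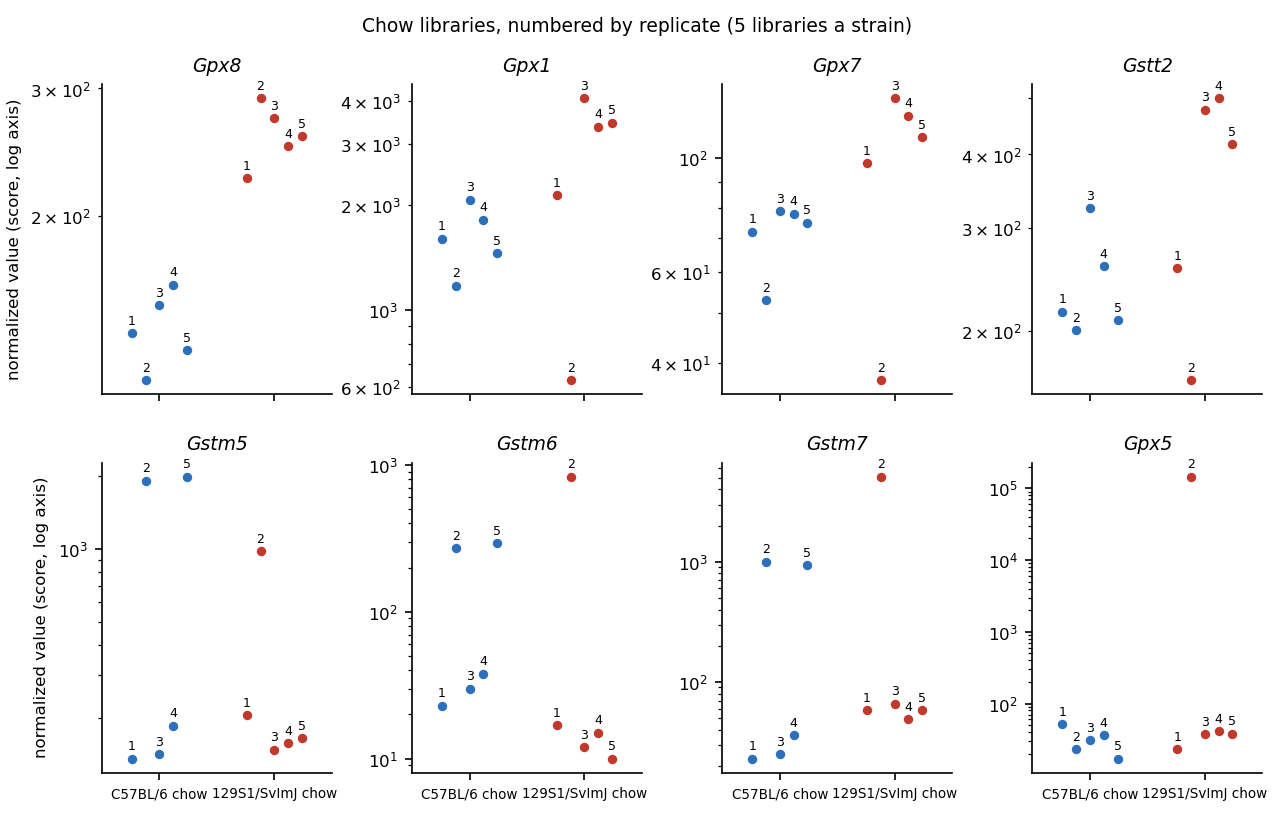
Normalized value (log axis) of 8 genes in each chow eWAT library, C57BL/6 in blue and 129S1/SvImJ in red, with the replicate number above each point. Gpx8 separates the strains in all 10 libraries. For Gpx1, Gpx7 and Gstt2 129S1/SvImJ replicate 2 is the lowest of all, and for Gstm6, Gstm7 and Gpx5 it is the highest.

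After 12 weeks of low fat diet, eWAT differed between strains in 8 of the 38 genes, 6 higher and 2 lower in 129S1/SvImJ, where 21.7% of all genes were called. Of the 8, 7 were transferases. Gstm1 was 483, 545, 497, 529 and 494 in C57BL/6 and 901, 837, 878 and 938 in 129S1/SvImJ, and Gstm4, another mu class gene, was 78, 74, 66, 66 and 68 and then 157, 153, 150 and 159. Both sets were narrow and far apart, with differences of 0.80 (SE 0.05, adjusted p = 1.16e-04) and 1.13 (SE 0.06, adjusted p = 6.75e-05). Gsto2, the second omega class gene, was 8 to 14 in C57BL/6 and 21 to 33 in 129S1/SvImJ (1.12, SE 0.18, adjusted p = 0.00507). Gstp2 was 2 to 4 and 7 to 11 (1.23, SE 0.19, adjusted p = 0.00447), close to the floor and uncertain through its copy Gstp1, which was not called. Gpx7 was the 1 peroxidase called, at 70 to 84 in C57BL/6 and 102 to 128 in 129S1/SvImJ (0.45, SE 0.09, adjusted p = 0.0105). Gstm7 was higher by 0.61 (SE 0.16, adjusted p = 0.0316), a call made in 1 of 9 fits that left out 1 library.

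Gsta3 and Gstm6 were lower in 129S1/SvImJ eWAT after 12 weeks. Gsta3 was 742, 1389, 1093, 1055 and 1000 in C57BL/6 and 328, 476, 646 and 303 in 129S1/SvImJ. Every 129S1/SvImJ library was below every C57BL/6 one, and the difference was -1.31 (SE 0.27, adjusted p = 0.0135), with 0.0345 without the library high in muscle markers. On control diet in the drug experiment the same gene was higher in 129S1/SvImJ. Gstm6 was 52, 42, 40, 48 and 40 in C57BL/6 and 16, 11, 16 and 7 in 129S1/SvImJ (-1.81, SE 0.24, adjusted p = 0.00215). It was called lower in 129S1/SvImJ in 3 of 5 strain comparisons and its estimate was negative in all 5, and no other gene of the set was called in more than 2. Of the 38 genes 17 were called in no strain comparison, and 2, Gsta3 and Gstm1, were called in both directions. Beside the 12-week differences all 6 endothelial markers were called lower in 129S1/SvImJ (1755 to 2467 against 4563 to 5117), as were 2 of 5 mesothelial and 2 of 6 skin and glandular epithelium markers, and 2 of 7 macrophage markers were called higher. Of the 8 adipocyte markers 2 were called higher and 3 lower, and the part of all these markers was not tested.

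In iWAT after 12 weeks 1 of the 38 genes was called, where 1.69% of all genes were. It was Gstm3, at 1 in all 4 C57BL/6 libraries and at 2 or 3 in 129S1/SvImJ, which is the floor of the scale. The call was made in 1 of 8 fits that left out 1 library. At an unadjusted p under 0.05 there were 6 genes. Gpx3 was among them, at 1507, 1164, 1023 and 1324 in C57BL/6 and 451, 634, 627 and 823 in 129S1/SvImJ. Its groups did not overlap and its estimate of -1 (SE 0.21, adjusted p = 0.0961) had the sign of the difference on rosiglitazone. Of 5 mesothelial markers 1, Msln, was called higher in 129S1/SvImJ iWAT (0.58). The 5 together summed to only 17 to 26 there and 5 to 21 in C57BL/6, near the floor. Endothelial markers summed to 2720 to 3389 in 129S1/SvImJ and 3662 to 4582 in C57BL/6. Of these 6, 0 were called by limma and 4 had an unadjusted p under 0.05. Lymphocyte markers, at 24 to 3250 and 6 to 1558, had 0 called. C57BL/6 iWAT had coarser values than the other libraries. The part of these markers and of the coarser values was not tested.

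The depots were compared within each strain across the 12-week tables, which share their highest values. In C57BL/6 7 of the 38 genes were called, 5 lower and 2 higher in iWAT than in eWAT, where 13.1% of all genes were called. The iWAT libraries of C57BL/6 had coarser values than all others, with 32.1% to 37.7% of rows at the floor against 15.2% to 27.2%. The part of this in the depot differences was not tested. Gsta3 was 742, 1389, 1093, 1055 and 1000 in eWAT and 249, 215, 297 and 114 in iWAT, the largest depot difference of the set (-2.32, SE 0.32, adjusted p = 4.27e-04). Gpx1 was 3230, 3580, 3319, 2802 and 2524 in eWAT and 1224, 987, 1156 and 1151 in iWAT. The lowest eWAT library of each gene was more than the highest iWAT library, and the Gpx1 difference was -1.44 (SE 0.16, adjusted p = 6.02e-05). Both were called in all 9 fits that left out 1 library. Gstm2 was lower in iWAT by 0.94 on the log2 scale (SE 0.29, adjusted p = 0.0471), which 1 of 9 such fits called.

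Gsto2 was higher in C57BL/6 iWAT, at 22, 27, 31 and 13 against 14, 11, 11, 8 and 11 in eWAT (0.97, SE 0.29, adjusted p = 0.0402), and so was Txnrd1, cytosolic thioredoxin reductase, at 455, 418, 429 and 490 against 397, 426, 371, 381 and 382 (0.19, SE 0.06, adjusted p = 0.0399). The groups of both overlapped, and the calls were made in 2 and 3 of 9 fits that left out 1 library. Gpx2-ps1 and Gstm3 were called lower at values of 1 in every iWAT library and 2 to 4 in eWAT. All 5 mesothelial markers were also called lower in C57BL/6 iWAT (summed values of 5 to 21 against 1644 to 2444), as were 3 of 6 skin and glandular epithelium, 2 of 8 adipocyte, 1 of 6 endothelial and 1 of 3 erythroid markers. The part of these markers in the differences was not tested.

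In 129S1/SvImJ 0 of the 38 genes were called by limma between depots, where 1.72% of all genes were, and 11 had an unadjusted p under 0.05. Gsta3 was 328, 476, 646 and 303 in eWAT and 151, 261, 309 and 169 in iWAT, an estimate of -0.97 (SE 0.33, adjusted p = 0.227). Gpx1 was 2002, 2592, 2820 and 3066 in eWAT and 1389, 2128, 1696 and 1323 in iWAT (-0.69, SE 0.16, adjusted p = 0.0554). Groups overlapped for both. The strain by depot term, in which 3.14% of all genes were called, was called for 2 of the 38 genes. Gsto2 was higher in iWAT of C57BL/6 but went from 26, 21, 33 and 21 in eWAT to 7, 15, 11 and 20 in iWAT of 129S1/SvImJ, a term of -1.91 (SE 0.42, adjusted p = 0.0270), with 0.0572 without 129S1/SvImJ eWAT replicate 3. The other was Gstm3 (1.21, SE 0.19, adjusted p = 0.00684), at values of 1 to 3. The terms of Gsta3 (1.35, SE 0.46) and Gpx1 (0.76, SE 0.23) had adjusted p-values of 0.142 and 0.0952. In 129S1/SvImJ all 5 mesothelial and 3 of 6 skin and glandular epithelium markers were called lower in iWAT and 1 of 6 endothelial markers higher, and in the strain by depot term 2 markers of each of these 3 lists were called, all with positive terms. Their part was not tested, nor was that of the coarser C57BL/6 iWAT values in the strain by depot term.

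**Figure D4:**
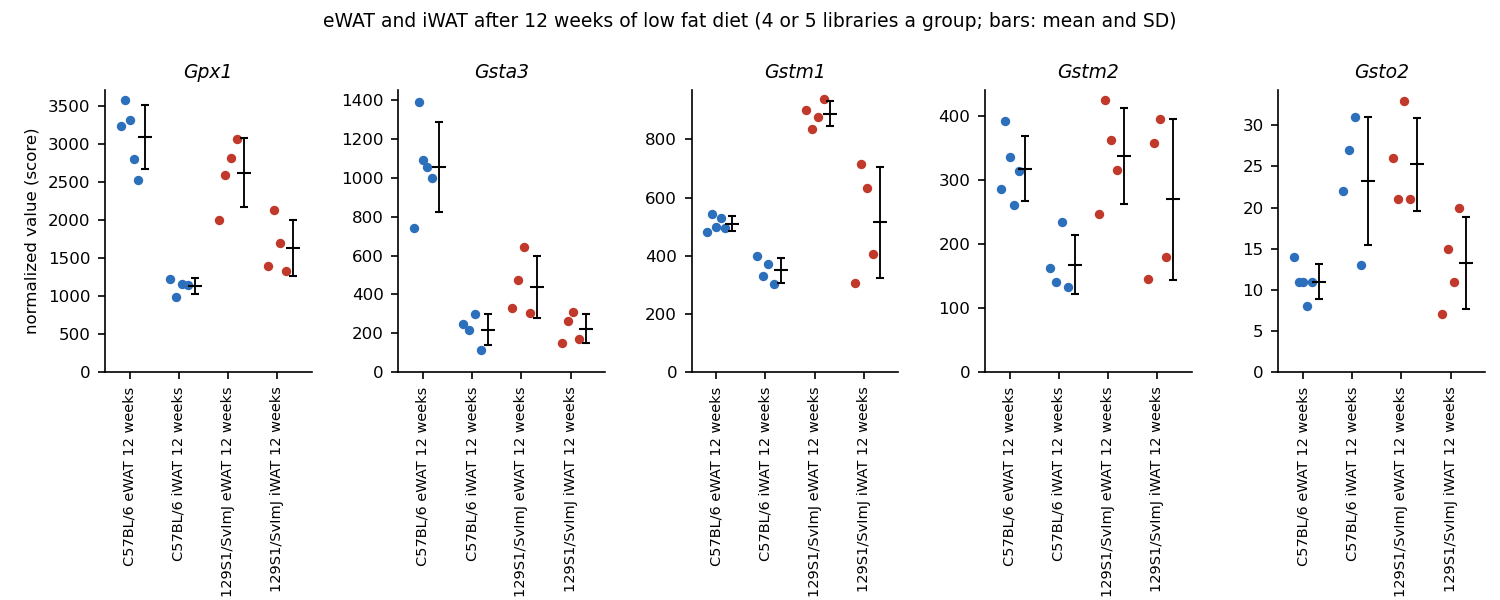
Normalized value of 5 genes in each library of eWAT and iWAT after 12 weeks of low fat diet, C57BL/6 in blue and 129S1/SvImJ in red, with the mean and SD of each group (4 or 5 libraries) in black. Gpx1 and Gsta3 of C57BL/6 are lower in every iWAT than in every eWAT library, and the mean of Gsto2 is 25.2 in eWAT and 13.2 in iWAT of 129S1/SvImJ, against 11 and 23.2 in C57BL/6.

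Among the enzymes that make and recycle glutathione and the classical NRF2 targets, Gclc, Gclm, Gss and Nqo1 (a quinone reductase) were called by limma in none of the 11 comparisons. Over these 44 tests 8 had an unadjusted p under 0.05. On control diet Gclc was 152, 125, 138 and 154 in C57BL/6 and 110, 112, 151 and 145 in 129S1/SvImJ, and on rosiglitazone 144, 127, 163 and 131 and then 145, 181, 147 and 153. Gclm was 79, 71, 72 and 72 in C57BL/6 and 58, 54, 56 and 61 in 129S1/SvImJ on control diet, groups that did not overlap without being called. Nqo1 ranged from 10 to 35 over the 16 libraries of the drug experiment. A p that misses the threshold does not show that these genes were equal. Levels were not tested between experiments, since the tables were normalized separately.

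**Figure D5:**
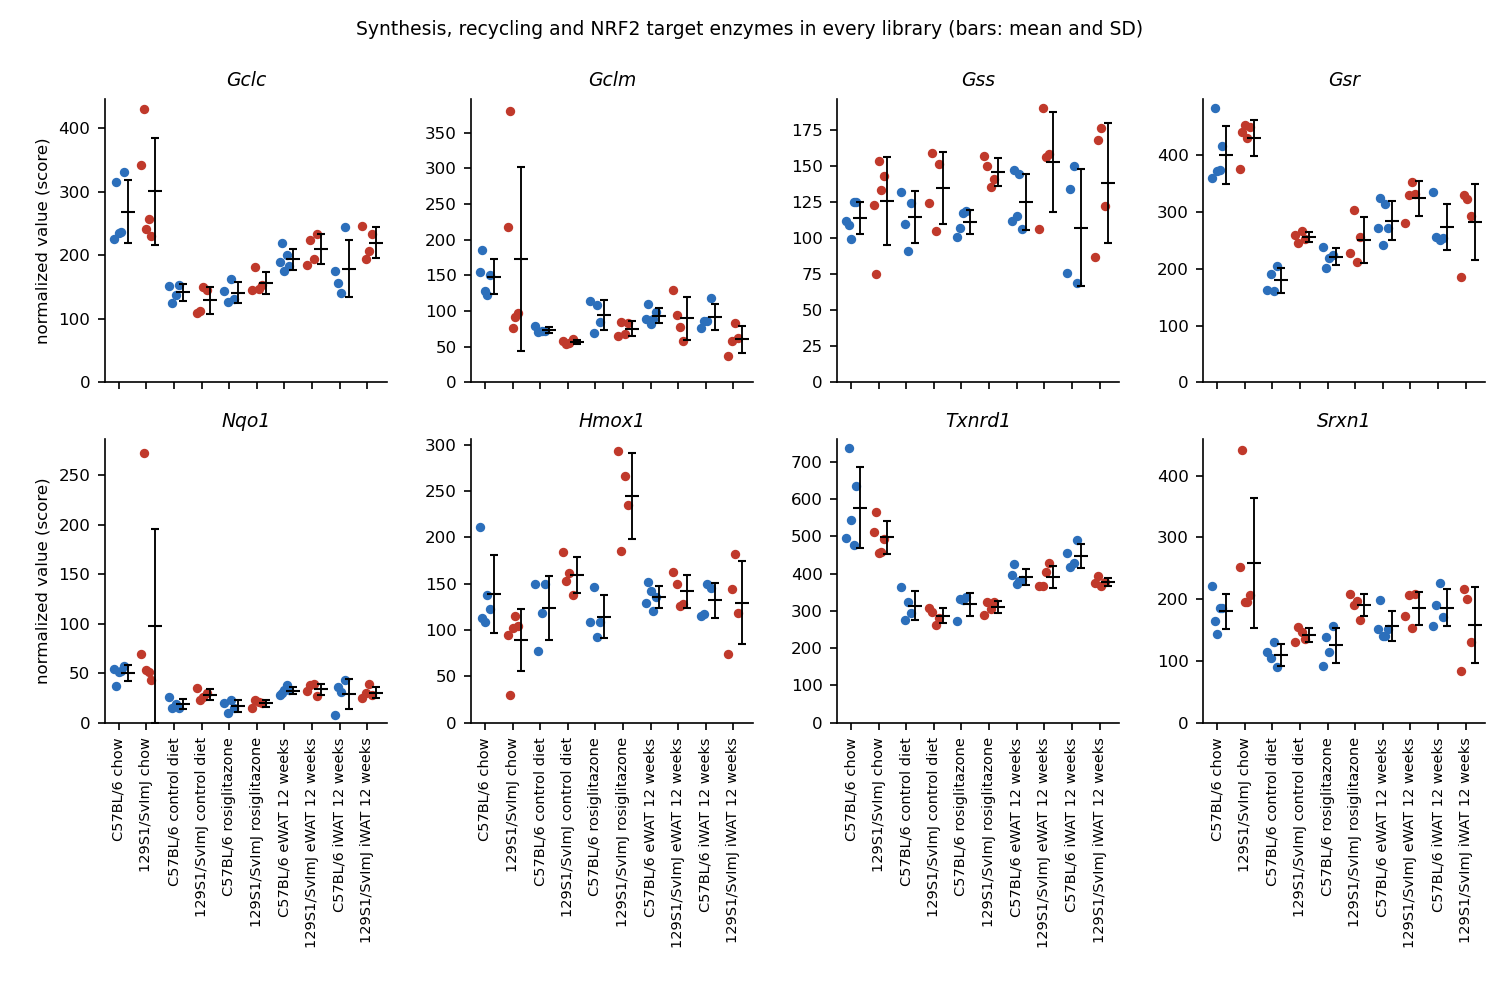
Normalized value of the 8 synthesis, recycling and NRF2 target enzymes in each of 43 libraries, C57BL/6 in blue and 129S1/SvImJ in red, with the mean and SD of each group in black. Nqo1 is at 273 in 1 chow library of 129S1/SvImJ and below 70 in all others, and Hmox1 is at 185 to 293 in the 4 treated 129S1/SvImJ libraries.

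Of 9 regulators of NRF2 (Nfe2l2, Keap1, Bach1, 3 small Maf genes, Cul3, Rbx1 and Sqstm1), 3 were called between strains on chow, where 4.99% of all genes were. Rbx1, a subunit of the ubiquitin ligase that marks NRF2 for breakdown, was higher in 129S1/SvImJ (0.52, SE 0.10, adjusted p = 0.0212), and Bach1, a repressor at the same elements, and Mafg, a small Maf partner of NRF2, were lower (-0.47, SE 0.08, adjusted p = 0.0163 and -0.65, SE 0.10, adjusted p = 0.0100). The part of the 129S1/SvImJ chow library with high epididymis markers in these 3 calls was not tested. On control diet 2 of the 9 were called (17.5% of all genes), Rbx1 higher and Bach1 lower, and after 12 weeks in eWAT 2 (21.7% of all genes), Maff higher and Keap1 lower. None was called by limma between strains on rosiglitazone, with 3 at an unadjusted p under 0.05, or with the drug, where 2 in C57BL/6 and 3 in 129S1/SvImJ had an unadjusted p under 0.05. Between depots Sqstm1 was called lower in iWAT of C57BL/6 (13.1% of all genes). Nfe2l2 itself was called in none of the 11 comparisons, with an unadjusted p under 0.05 in 6. Of 19 other NRF2 target genes outside the set, 8 were called higher and 1 lower in 129S1/SvImJ on control diet (17.5% of all genes called), 6 higher and 4 lower on rosiglitazone (10.7%), and 5 higher and 5 lower after 12 weeks in eWAT (21.7%). On chow 2 were called higher (4.99% of all genes) and in iWAT 1 (1.69%). With the drug 3 of the 19 were called lower in 129S1/SvImJ (5.51% of all genes) and 2 higher in C57BL/6 (2.43%), and 3 were called lower in iWAT than in eWAT of C57BL/6 (13.1%).

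Slc7a11, the cystine importer that supplies cysteine for glutathione, had the largest difference of that list. On control diet it ranged from 6 to 9 in C57BL/6 and from 220 to 283 in 129S1/SvImJ, a log2 difference of 4.83 (SE 0.22, adjusted p = 6.06e-12). It was also higher in 129S1/SvImJ on chow (8 to 16 against 120 to 1498, a difference of 4.23, SE 0.68, adjusted p = 0.0120). That chow group includes the library with high epididymis markers, whose part was not tested. Slc7a11 was higher in 129S1/SvImJ on rosiglitazone (3.51, adjusted p = 5.93e-10) and after 12 weeks in eWAT (4.07, adjusted p = 2.12e-04) too. In iWAT it was not called (estimate 4.94, SE 1.04, adjusted p = 0.0981). With rosiglitazone it fell in 129S1/SvImJ to between 56 and 98 (-1.66, SE 0.22, adjusted p = 5.39e-05). Glo1, the glyoxalase that uses glutathione to clear methylglyoxal, was higher in 129S1/SvImJ in all 5 strain comparisons, by 1.19 to 1.49. On control diet it ranged from 121 to 143 in C57BL/6 and from 347 to 390 in 129S1/SvImJ (adjusted p = 2.26e-09). Among 18 thioredoxin, glutaredoxin and peroxiredoxin genes 6 were called higher and 2 lower in 129S1/SvImJ on control diet, where 17.5% of all genes were called. The glutaredoxin Glrx had the largest difference of the 8 (1.36, SE 0.27, adjusted p = 0.00140), and the peroxiredoxins Prdx6 (0.96, SE 0.10, adjusted p = 1.58e-06) and Prdx2 (0.94, SE 0.10, adjusted p = 1.73e-06) had the smallest p-values. With rosiglitazone in 129S1/SvImJ (5.51% of all genes called) 2 of the 18 rose and 1, Prdx6, fell, from between 2016 and 2552 to between 1074 and 1337 (-0.83, SE 0.10, adjusted p = 2.42e-05).

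Catalase (Cat), the peroxisomal enzyme that removes hydrogen peroxide without glutathione, rose with rosiglitazone in both strains, from 3583 to 3970 up to 4775 to 6617 in C57BL/6 (0.60, SE 0.10, adjusted p = 0.00220) and from 3953 to 5248 up to 6671 to 8024 in 129S1/SvImJ (0.75, SE 0.10, adjusted p = 7.87e-05). The membrane-bound glutathione transferases and their kin, 7 genes that include the leukotriene and prostaglandin enzymes, had 4 members called higher and 1 lower with the drug in 129S1/SvImJ, where 5.51% of all genes were called, and 1 higher in C57BL/6, where 2.43% were. Ltc4s, leukotriene C4 synthase, rose in both (0.81 in each), and Mgst2, a membrane-bound transferase, rose in 129S1/SvImJ (1.31, SE 0.27, adjusted p = 0.00431). Ptges, prostaglandin E synthase, was the member that fell in 129S1/SvImJ, from between 389 and 648 to between 179 and 209 (-1.42, SE 0.22, adjusted p = 6.67e-04), and its strain by rosiglitazone term was -1.88 (SE 0.31, adjusted p = 0.0175).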

How the data were processed

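RNA was extracted with Trizol and RNeasy columns and sequenced on an Illumina Genome Analyzer from TruSeq libraries, per the labels' protocols. The deposited values are a score per transcript and library, a whole number with a floor of 1 that the authors had already normalized. Per the submitters' processing notes HOMER and mm9 were used. Aligner, counting options, normalization and strandedness were not given in the sources used here. Libraries of an experiment share their highest values, as quantile normalization leaves them, so depth is unknown and no count test or counting interval applies. The labels list 49 samples, of which 43 libraries in 5 tables were used, while 5 of F1 mice and 1 of nascent RNA were not analysed here. The 8 control diet libraries stand with identical values in both drug tables.

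For each symbol the transcript row with the highest total was kept (22869 of 28644 rows). The test was limma (version 3.58.1, R 4.3.3) on log2(value + 1) (trend and robust moderated statistics, 1 mean per group, two-sided, Benjamini-Hochberg adjustment over all genes, threshold 0.05). Chow, 12-week eWAT and 12-week iWAT strains were fitted each alone, the drug experiment over its 16 libraries, and the depots over 17. The scripts were tested on simulated data. Replicate numbers were not used as pairs, since no label says that a number marks a shared animal or day. In none of 9 sets of groups did every same-numbered pair correlate above 0.1, which cannot show that no animals were shared. The depots were fitted as independent libraries, though no label says whether eWAT and iWAT came from the same mice.

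The genes and lists were chosen with earlier results of these data known. Named are Gpx1, Gpx3, Gpx4 and the 8 enzymes wherever called, and of the rest up to 10 called genes a comparison by size of difference, with separate groups and the higher one averaging at least 5. Called genes outside that rule (Gstt1, Gsto2, Gstp2, Gstm3 and Gpx2-ps1 where groups overlap or means are low) were named after their values were seen, as were Gpx5 and the chow values of Gstm5, Gstm6 and Gstm7. Alternatives were a pseudocount of 8, a minimum mean of 10, median centring, array weights, summed transcript rows, a replicate block, 2 groups alone and each library left out. Promoters came from RefSeq and transcripts from GENCODE, both on GRCm38.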

Additional observations from a re-analysis of the deposited data

Results flagged for a closer look

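Each of 288 pairs of a gene and a group whose highest value was at least 20 (a limit set after the data were seen) was searched for 1 library far from the rest, by Dixon's test at the 95% level, which chance flags in about 1 in 20 groups. It marked 27 values, 10 of them in 129S1/SvImJ chow replicate 2. There the values were 145538 for Gpx5 (others 23 to 41), 89 for Gpx6, 979 for Gstm5, 831 for Gstm6, 5118 for Gstm7, 582 for Gstt3, 51 for Gstt4, 273 for Nqo1 and 441 for Srxn1, all the highest of 5, and 30 for Hmox1, the lowest of 5. The part of the epididymis, skin and adipocyte markers that stand apart in the same library was not tested.

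In the other chow libraries 129S1/SvImJ replicate 1 was lowest for Gsr (375) and highest for Gsta2 (21). In C57BL/6, replicate 1 was highest for Hmox1 (211) and lowest for Gstt1 (379), and replicate 2 was lowest for Gpx7 (53). In C57BL/6 on control diet, replicate 4 was highest for Gpx3 (2344, others 567 to 852) and Gstp1 (156), and replicate 1 for Gclm (79, others 71 to 72). In 129S1/SvImJ on control diet replicate 3 was lowest for Gstt1 (293). On rosiglitazone 129S1/SvImJ replicate 1 was lowest for Gpx7 (88, others 93 to 94) and C57BL/6 replicate 1 for Txnrd1 (272).

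After 12 weeks in eWAT, 129S1/SvImJ replicate 2 was highest for Gpx7 (128) and C57BL/6 replicate 2 for Srxn1 (199). In C57BL/6 iWAT replicate 1 was highest for Gsr (334), replicate 2 for Gstp1 (166), and replicate 4 was lowest for Gstt3 (52). In 129S1/SvImJ iWAT replicate 1, high in muscle and lymphocyte markers, was lowest for Gstm5 (56).

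In limma's interaction tests, of strain by rosiglitazone and strain by depot, 4 terms of the set were called. With rosiglitazone the terms (129S1/SvImJ minus C57BL/6) were -0.97 for Gstm2 and 1.14 for Gsto1, called in 9 and 2 of 16 fits that left out 1 library. Between depots they were -1.91 for Gsto2 and 1.21 for Gstm3, the latter at values of 1 to 3.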

How the results depend on the processing

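Of 51 called results for single genes of the set, 32 were called in every fit that left out 1 library, 22 in every other setting and 20 in both, and none reversed its direction. Calls of single genes outside the set, such as Slc7a11, Cat and Me1, were not followed through these fits. The depth behind the values is unknown, and values near the floor of 1 (Gstm3, Gstp2, Gpx2-ps1) have no resolution. Leaving out 1 library at a time, the number of genes of the set called was 1 to 3 on chow (1 with all libraries), 8 to 11 on control diet (11), 6 to 8 between strains on rosiglitazone (9), 0 to 1 with the drug in C57BL/6 (1), 6 to 12 with it in 129S1/SvImJ (9) and 0 to 3 for the strain by rosiglitazone term (2). It was 7 to 9 after 12 weeks in eWAT (8), 0 to 2 in iWAT (1), 3 to 6 between depots in C57BL/6 (7), 0 to 3 in 129S1/SvImJ (0) and 1 to 3 for the strain by depot term (2). Without 129S1/SvImJ chow replicates 1 and 2 together, 6 genes of the set were called on chow, and 2597 of all genes against 1142. That setting was chosen after seeing the data and left out libraries of 1 strain only.

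With the replicate number as a block, 0 genes of the set were called on chow, 3 after 12 weeks in eWAT, 0 in iWAT, 4 between depots in C57BL/6 and 1 for the strain by depot term. Over all genes the block gave 252 on chow (1142 without), 1277 in 12-week eWAT (4973), 30 in iWAT (387), 256 between depots in 129S1/SvImJ (393) and 220 for the strain by depot term (717). No label says that a number marks a shared animal or day, and in none of 9 sets did all pairs correlate above 0.1. Array weights gave 6 on chow and 2 between depots in C57BL/6. Over all genes they gave 3690 on chow, 84 for the strain by rosiglitazone term (48) and 584 in iWAT.

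With 2 groups fitted alone 0 of the set were called with the drug in C57BL/6 (73 of all genes against 556) and 1 between depots in 129S1/SvImJ (211 of all genes), and between strains on rosiglitazone 1407 of all genes were called (2443). A pseudocount of 8 gave 1 for the strain by rosiglitazone term, 0 in iWAT (220 of all genes) and 1 between depots in 129S1/SvImJ. Summed transcript rows gave 1 for the strain by rosiglitazone term (31 of all genes) and 0 in iWAT (164 of all genes). A minimum mean of 10 gave 3 between depots in 129S1/SvImJ, 1 for the strain by depot term and 240 of all genes in iWAT, and median centring gave 2 between depots in 129S1/SvImJ. The cause of these changes in the counts was not tested.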

Other observations

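In the strain by depot term, in which 3.14% of all genes were called, 1 of the 19 other NRF2 targets and 1 of the 18 thioredoxin, glutaredoxin and peroxiredoxin genes were called. Ftl1, the ferritin light chain, was lower in iWAT than eWAT of C57BL/6 by 1.76 on the log2 scale (SE 0.16, limma adjusted p = 1.17e-05), and its strain by depot term was 1.73 (SE 0.23, adjusted p = 0.00255). It was lower in 129S1/SvImJ than in C57BL/6 in 12-week eWAT (-0.99, SE 0.20, adjusted p = 0.0127) and higher in iWAT (0.74, SE 0.08, adjusted p = 0.0147). The other was Glrx2, a mitochondrial glutaredoxin, with a term of -1.24 (SE 0.24, adjusted p = 0.0167). Glrx, its cytosolic relative, was not called in that term but was higher in 129S1/SvImJ on control diet (as given above), on rosiglitazone (1.80, adjusted p = 1.56e-04) and after 12 weeks in eWAT (1.99, adjusted p = 0.00196). The depot, iWAT and strain by depot values of Ftl1 and Glrx2 rest on the C57BL/6 iWAT libraries, whose values were coarser than elsewhere. The part of this was not tested, and sequence shared with other genes was not examined for Ftl1 and Glrx2.

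Of the 19 other NRF2 targets, 5 are named here after their values were seen. Me1, G6pdx and Pgd make NADPH, and Taldo1 and Tkt are enzymes of the non-oxidative pentose phosphate pathway. Me1, malic enzyme, rose with rosiglitazone in C57BL/6 (1.34, SE 0.26, adjusted p = 0.0110), as did G6pdx, glucose-6-phosphate dehydrogenase (0.59, SE 0.10, adjusted p = 0.00203). Me1 was lower in 129S1/SvImJ than in C57BL/6 on the drug (-1.02, SE 0.26, adjusted p = 0.0189) and after 12 weeks in eWAT (-1.60, SE 0.28, adjusted p = 0.00655). Taldo1, transaldolase, was higher in 129S1/SvImJ on control diet (0.85, SE 0.11, adjusted p = 2.19e-05) and on rosiglitazone (0.69, SE 0.11, adjusted p = 2.80e-04). Pgd, phosphogluconate dehydrogenase, was higher in 129S1/SvImJ on control diet (0.50, SE 0.11, adjusted p = 0.00323). Tkt, transketolase, was higher in 129S1/SvImJ on control diet (0.98, SE 0.24, adjusted p = 0.0103) and lower after 12 weeks in eWAT (-1.60, SE 0.35, adjusted p = 0.0166).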
